A study of Mus musculus with 8 samples.

Results

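The genes of the voltage-gated sodium and calcium channels were described by their cover with H3K27ac, a histone mark carried by promoters and enhancers in use. The set is a list of 30 genes: 9 sodium channel alpha subunits, 3 sodium channel beta subunits, 10 calcium channel alpha1 subunits, 4 alpha2delta subunits and 4 calcium channel beta subunits, out of 21631 protein-coding genes. For each gene the window was the gene span in mm10 plus 20 kb to each side. Its level in a library is the length of window lying in called peaks, in bp, per Mb called in that library. Of the 30 genes, 25 had a mean level of at least 10 bp per Mb and were tested, among 15537 genes that passed this filter. Since a gene with peaks in 1 group alone can pass through that group, the 25 are not all members. Scn4a, Scn7a, Scn9a, Scn10a and Scn4b did not pass.

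The data are 8 lists of H3K27ac peaks from C57/BL6 mouse neuronal cultures, in 4 groups of 2 libraries. The titles name the cultures CTX or MGE (an abbreviation commonly used for the medial ganglionic eminence, a source of cortical interneurons) and the treatment KCl or unstimulated. Every group, the unstimulated ones included, was kept silent from day 6 in vitro, overnight, by TTX at 1 µM, which blocks sodium channels themselves, and D-AP5 at 100 µM, which blocks NMDA receptors. On day 7 the KCl groups received 55 mM KCl for 2 h, which depolarises neurons and opens voltage-gated calcium channels, and the unstimulated groups received no KCl. The labels disagree on the material: the CTX titles give embryonic day 14, the source field gives day 16 for all libraries, and the cell type field names cortical neurons for the MGE libraries too. Libraries are numbered 1 and 2 in each group as biological replicates, but the labels do not say which step was done separately, so p-values cover only how far these libraries lie apart, which may be technical. Cultures are bulk material: fewer cells carrying the mark and less acetylation per cell cannot be told apart in any value below.

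Sodium channels carry the rising phase of the action potential through a pore-forming alpha subunit, with beta subunits that adjust gating and surface placement. Calcium channels are built on an alpha1 subunit: Cav1 (L-type) channels couple depolarisation to gene transcription, Cav2 channels trigger transmitter release, and Cav3 (T-type) channels open near rest and support burst firing. Alpha2delta and beta subunits bring alpha1 subunits to the membrane. Scn1a is a main sodium channel of fast-spiking interneurons, while Scn2a and Scn8a serve the axon initial segment of many excitatory neurons.

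Each list held between 36035 and 66827 peaks, which together spanned 21.1 to 44.7 Mb, with 23.5 to 44.7 Mb in CTX and 21.1 to 32.04 Mb in MGE. The read depth is unknown. Libraries of one group shared 44.2% to 51.4% of the bases called in either. The KCl label was checked on 11 activity-regulated genes, whose summed level lay at 1126 to 1468 bp per Mb in the 4 KCl libraries and at 596 to 730.1 in the 4 unstimulated ones. Atf3 and Fosb passed in CTX, and Atf3, Fos, Fosb and Nr4a1 in MGE, all higher with KCl, while between cultures Nr4a1 was called, lower in MGE. Markers of cortical glutamatergic neurons summed to 347 to 705 bp per Mb in CTX and 65.4 to 183 in MGE, and 7 of the 8 tested were called lower in MGE. Markers of MGE and GABAergic neurons summed to 983 to 1091 in CTX and 1861 to 2333 in MGE, with 6 of 12 called higher in MGE. Markers of other cells differed as well. Those of astrocytes summed to 442 to 530.1 in CTX and 149 to 351 in MGE, with 4 of 7 called lower in MGE and Sox9 called higher with KCl in MGE. Those of the oligodendrocyte lineage summed to 401 to 522 and 65.3 to 136, with 5 of 5 called lower. Those of microglia summed to 68.4 to 112 and 138 to 214, with Csf1r called higher in MGE and Cx3cr1 at 0 in every library. Those of endothelial and mural cells summed to 180.1 to 317 and 158 to 235, with Pecam1 called lower in MGE, Flt1 called lower with KCl in CTX, and Cldn5 and Kdr at 0 throughout. The part of these cells in the results on channel genes was not tested.

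Summed over the 30 genes, the level lay between 3782 and 4556 bp per Mb in all 8 libraries, with 3782 to 4098 in CTX and 3887 to 4556 in MGE. The cultures differed in which channel genes carried the peaks. Members had long windows, with a median of 154 kb against 57.3 kb for all genes, and a median of 1.79% of the window was called, against 1.65% for all genes. Per length, Cacnb1, which encodes a calcium channel beta subunit best known from muscle, was the most covered member with 6.69% of its window called on average, followed by the neuronal beta subunit gene Cacnb3 with 5.52% and Cacna1g, which encodes a T-type alpha1 subunit, with 3.49%. In the windows of Cacnb1 and Cacnb3 only 25.4% and 43.5% of the called bases lay in the gene span itself. The rest of the Cacnb1 window is shared with Rpl19, Stac2, Plxdc1 and Arl5c, and that of Cacnb3 with Adcy6 and Ddx23. Windows of other members overlap little, by at most 5.56 kb at Scn10a and Scn11a, except for the 31.4 kb shared by Scn2b and Scn4b.

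MGE and CTX cultures were compared with limma on log2(level + 10), averaged over treatments, with Benjamini-Hochberg adjustment over 15537 genes. Of the 25 members tested, 8 were higher in MGE and 3 lower at an adjusted p under 0.05. Among all genes tested 10.8% were called higher, 12.9% lower and 23.7% either way. These shares are not matched for window length, which had a median of 154 kb for members and 57.3 kb for all genes. At an unadjusted p under 0.05 there were 13 members and 34.7% of all genes. The 8 were Cacna2d2, Cacna1i, Scn1a, Cacna1b, Scn3a, Cacnb1, Scn3b and Cacna1s, and the 3 were Cacna2d1, Cacna2d4 and Cacna1c. The median difference was 0.23 for the 25 members, between -2.96 and 1.67, and 0.12 for all genes. The 4 MGE libraries all lay above the 4 CTX libraries at 8 members, against 10.6% of all genes tested, and all below at Cacna1c and Cacna2d1, against 10.2%. Scaling moves the zero of this comparison. The median of all genes was -0.31 with called bp not scaled and -0.13 with the same number of called bp taken from every library. That of the members was -0.20 and 0.13 in the same order, and -0.0022 to 0.46 when each library was left out in turn. Of all calls 1674 were higher and 2007 lower as scaled here, 303 and 1799 unscaled, and 1189 and 1583 at equal called bp. Each difference is therefore also given below relative to the median of all genes, as a relative difference. The signs of the 11 calls held under both other scalings. Cacna1s turned to -0.14 when only peaks with a −log10 q of at least 5 were used.

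**Figure D1:**
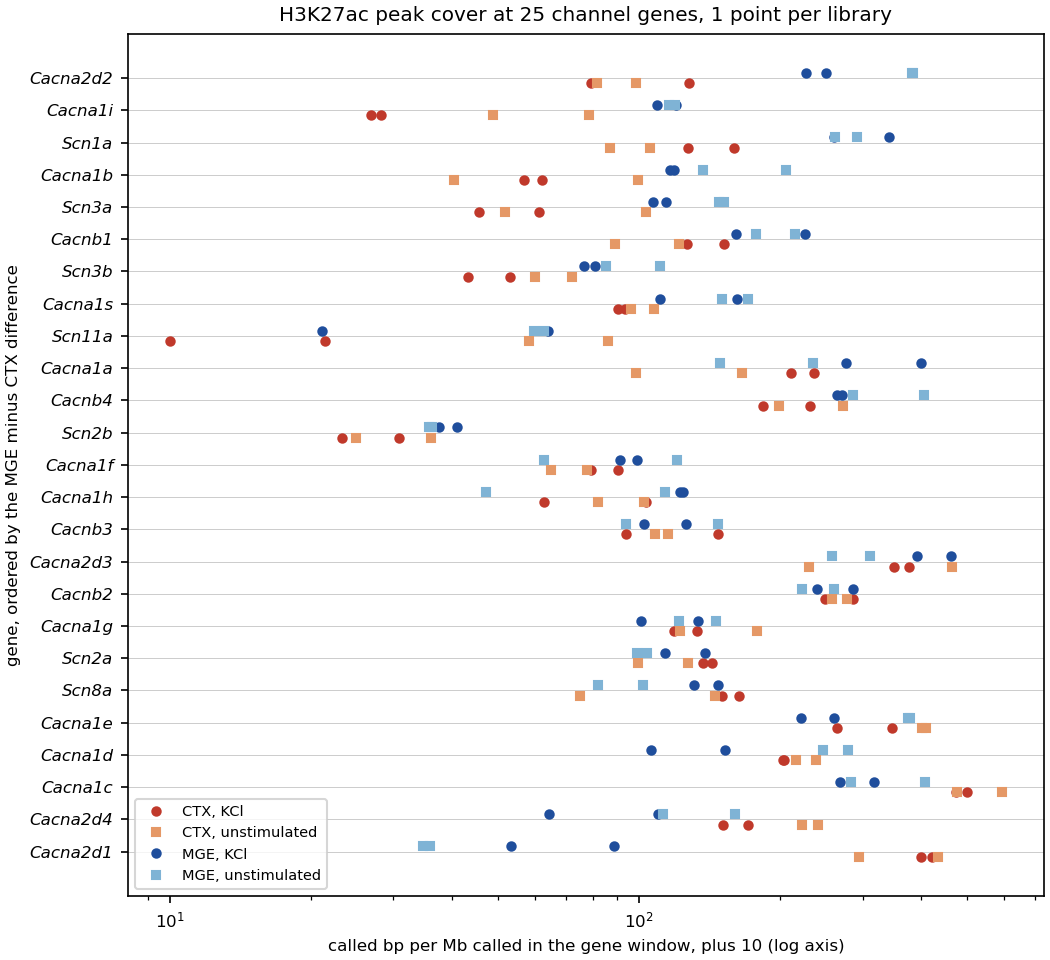
Level of each tested channel gene in each library, in called bp per Mb called plus 10 on a log axis, with genes ordered by the MGE minus CTX difference. Circles are KCl and squares unstimulated libraries, red tones CTX and blue tones MGE; the blue points lie right of all red points at 8 genes and left of them at Cacna1c and Cacna2d1.

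**Figure D2:**
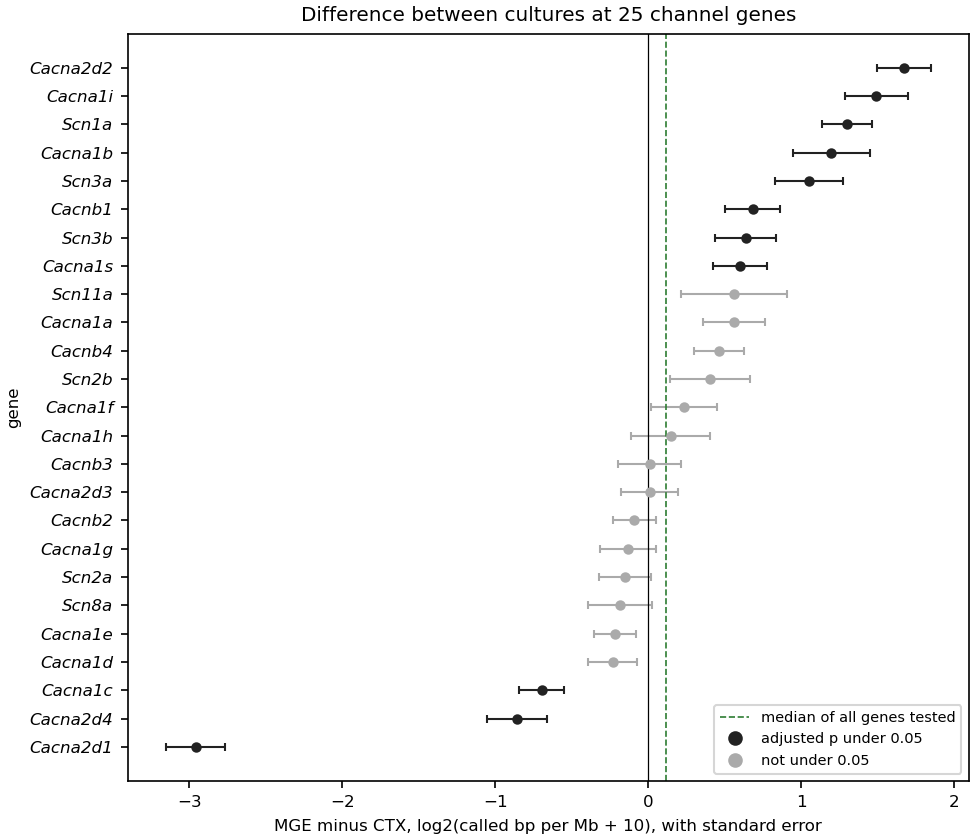
MGE minus CTX difference in log2(level + 10) for the 25 tested genes, with its standard error from the fit over all genes. Black points passed an adjusted p of 0.05 (8 higher, 3 lower), grey points did not, and the dashed line is the median of all genes tested, 0.12.

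Promoters of members with large differences of either sign are shown here, so that the start can be set beside the peaks elsewhere in the window. They come from RefSeq (GRCm38.p6, with the same coordinates as mm10), run 5′ to 3′ on the strand of the gene from 250 bases before the start to 50 bases after it, and have CpG dinucleotides in capitals. Cacna2d2 (chr9:107399630-107399929, plus strand) and Cacna1i (chr15:80286988-80287287, plus strand) had the largest differences upward, and Cacna2d1 (chr5:15934441-15934740, plus strand) the largest downward. Cacna2d4 had the next largest downward. Scn1a (chr2:66440788-66441087, minus strand) was added after its values were seen, because it was called at its start in MGE libraries only. Scn2b (chr9:45117626-45117925, plus strand), also added after its values were seen, is a CpG-poor start with peaks in every library.
Cacna2d2: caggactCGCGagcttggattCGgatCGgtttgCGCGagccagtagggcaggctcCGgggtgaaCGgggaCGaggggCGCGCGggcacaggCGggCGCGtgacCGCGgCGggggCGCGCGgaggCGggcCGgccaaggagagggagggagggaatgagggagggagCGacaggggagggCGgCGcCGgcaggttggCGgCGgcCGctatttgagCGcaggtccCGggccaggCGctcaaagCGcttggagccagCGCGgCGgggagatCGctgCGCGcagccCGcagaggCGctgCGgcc
Cacna1i: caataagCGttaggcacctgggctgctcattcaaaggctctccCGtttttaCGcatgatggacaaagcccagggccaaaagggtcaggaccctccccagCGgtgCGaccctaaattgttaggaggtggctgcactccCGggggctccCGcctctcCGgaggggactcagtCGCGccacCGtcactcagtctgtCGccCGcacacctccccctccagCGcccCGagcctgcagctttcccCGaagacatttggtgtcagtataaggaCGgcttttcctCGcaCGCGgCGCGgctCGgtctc
Cacna2d1: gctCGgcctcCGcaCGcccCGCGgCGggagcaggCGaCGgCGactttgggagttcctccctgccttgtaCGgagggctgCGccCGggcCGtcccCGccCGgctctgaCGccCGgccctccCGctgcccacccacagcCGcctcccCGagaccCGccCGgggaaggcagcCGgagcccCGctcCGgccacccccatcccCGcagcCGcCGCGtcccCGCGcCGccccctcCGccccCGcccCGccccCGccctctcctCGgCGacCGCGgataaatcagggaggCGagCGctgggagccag
Scn1a: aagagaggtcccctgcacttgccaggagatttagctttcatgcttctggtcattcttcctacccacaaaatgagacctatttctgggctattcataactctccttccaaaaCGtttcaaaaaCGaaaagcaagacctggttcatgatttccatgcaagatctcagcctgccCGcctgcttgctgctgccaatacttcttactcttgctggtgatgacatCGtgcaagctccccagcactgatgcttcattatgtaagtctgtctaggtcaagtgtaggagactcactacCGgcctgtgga
Scn2b: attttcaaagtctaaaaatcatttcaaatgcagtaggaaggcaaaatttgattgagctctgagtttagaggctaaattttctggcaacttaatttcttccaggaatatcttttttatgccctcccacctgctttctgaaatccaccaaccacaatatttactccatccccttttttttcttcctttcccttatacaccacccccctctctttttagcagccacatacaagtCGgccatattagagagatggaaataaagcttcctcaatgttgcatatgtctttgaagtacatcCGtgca
The Cacna2d1 and Cacna2d2 promoters hold 42 and 43 CpGs and have a GC content of 80.0% and 75.7%, that of Cacna1i holds 23 at 62.7%, and those of Scn1a and Scn2b hold 5 and 2 at 47.3% and 38.3%. Over 21045 promoters in the table the median was 13 CpGs and 56.7% GC.

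Within 1 kb of the listed start, peaks were called in all 8 libraries at 13 of the 24 members with a promoter entry and in no library at 8, with several starts for some genes. Among 17274 genes with an entry these shares were 41.6% and 40.8%. The 16 member promoters called in all 8 libraries had a median of 34.5 CpGs and 71.8% GC, and the 14 called in none had 6 CpGs and 53.7% GC. Promoters of all genes were not split in this way, so the contrast is not shown to be particular to channel genes. Cacnb4 start 1 and Cacnb4 start 2, counted singly among the 16, lay at the same peak in each library. Some starts with few CpGs were called in all 8 libraries: Scn2b (2), Scn2a (3 and 9), Cacnb4 (5) and Cacna1e (11). The Scn2a start with 3 CpGs had 33.0% GC. In the other direction, the Scn4b start, with 26 CpGs and 66.3% GC, was called in no library. The peak at Scn2b ranked high by the authors' fold enrichment, between the 85.9th and the 99.8th percentile of its list. Scn7a, Scn9a, Scn10a, Scn4a, Scn11a and Scn4b, channels of peripheral neurons, muscle or glia except for Scn4b, had no peak at a listed start in any library. Cacna1f, a retinal L-type channel gene, and Cacna1s, the L-type channel gene of skeletal muscle, had none either. On both strands, none of the 34 member promoters held TGANTCA (AP-1), TGACGTCA (CRE) or CAGCACC (a part of the RE1 site bound by the repressor REST), which occur in 7.04%, 2.26% and 7.31% of all promoters. GGACAG, another part of RE1, was in 3 member promoters, of Cacnb1, Cacnb3 and Scn8a, and in 22.5% of all. The E-box CANNTG was in 22 of 34, or 64.7%, and in 69% of all.

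Among the sodium channel alpha subunits of the central nervous system, Scn1a and Scn3a were higher in MGE, and Scn2a and Scn8a did not pass. Scn1a (chr2:66270781-66440837) stood at 149, 117, 95.5 and 77.0 bp per Mb in CTX and 332, 251, 252 and 282 in MGE. Here and below the 4 libraries of a culture are given as KCl 1, KCl 2, unstimulated 1 and unstimulated 2. All MGE libraries lay above all CTX libraries, whose highest was 149. The difference was 1.299 ± 0.16 (log2, SE; limma adjusted p = 5.1e-05), a relative difference of 1.182, and it passed in all 18 alternatives run. A segment inside the gene, chr2:66362889-66365187, 76.8 kb downstream of the start, was called over 1697, 1965, 1046 and 1352 bp in the MGE libraries and in no CTX library. At the start, 3 MGE libraries and no CTX library had a peak. In the opposite direction, a short segment at chr2:66294191-66294716 was called over 297 to 506 bp in all CTX libraries and in no MGE library. A segment in the flank at Ttc21b was called in all 8 libraries, and 63.0% of the called bases of the window lay in the gene span.

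Scn3a, an alpha subunit best known from the developing brain, stood at 35.6, 51.1, 93.6 and 41.8 in CTX and 104, 97.0, 138 and 142 in MGE. The cultures did not overlap, though CTX unstimulated library 1 came close to the lowest MGE library. Scn3a was higher in MGE by 1.05 ± 0.22 (adjusted p = 0.0029, limma), a relative difference of 0.93. The call was lost without a filter on low values, with called bp not scaled and with peaks under a −log10 q of 5 left out. Scn2a stood at 127, 133, 89.8 and 117 in CTX and 104, 129, 89.3 and 94.0 in MGE. Scn8a stood at 141, 153, 65.0 and 135 in CTX and 121, 138, 71.7 and 92.1 in MGE. At both genes the cultures overlapped, with differences of -0.15 and -0.18 that did not pass.

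The other sodium channel alpha subunit genes, known from sensory neurons, muscle or glia, had few peaks. Scn4a and Scn9a had a peak in 1 library each, Scn7a in 2 and Scn10a in 4, and their highest level in any library was 23.3 bp per Mb, at Scn10a. With 50 kb to each side Scn9a passed the filter and was called higher in MGE (2.37, limma adjusted p = 1.5e-04), in a window that then takes in the start of Scn1a. Scn11a, a channel of pain-sensing neurons, passed the filter, at 0, 11.4, 76.1 and 48.3 bp per Mb in CTX and 11.2, 54.1, 52.8 and 49.8 in MGE. No library called its start. Of the beta subunits, which tune alpha subunits, Scn3b was higher in MGE by 0.64 ± 0.20 (limma adjusted p = 0.029), a relative difference of 0.52. It stood at 33.2, 43.2, 62.1 and 50.1 in CTX and 70.5, 66.5, 101 and 75.1 in MGE, without overlap. This call was lost in 12 of 18 alternatives: without a filter (adjusted p = 0.052), with the gene span alone (0.070) or with 50 kb (0.21), without peaks under a −log10 q of 5 (0.76), unscaled (0.59), at equal called bp (0.20), and without any of CTX KCl 1, CTX KCl 2, CTX unstimulated 2, MGE KCl 1, MGE KCl 2 or MGE unstimulated 1 (limma adjusted p 0.0502 to 0.132). Scn2b had a single segment, called in all 8 libraries over its start, and stood at 13.3 to 26.1 in CTX and 25.7 to 30.9 in MGE. Scn4b lies beside it, and its 1 peak came from 1 MGE KCl library and is the edge of the Scn2b segment.

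Among the Cav1 alpha1 subunits, Cacna1c, the main L-type channel gene of brain and heart (chr6:118587240-119197384), was lower in MGE. It stood at 464, 491, 467 and 584 in CTX and 306, 258, 397 and 273 in MGE, so every CTX library exceeded every MGE library. The difference was -0.69 ± 0.15 (limma adjusted p = 0.0029), a relative difference of -0.81. It did not pass without a filter on low values, with called bp not scaled or with peaks under a −log10 q of 5 left out. Of 51 segments at Cacna1c, 5 were called in all CTX and no MGE libraries and 2 the reverse. The latter lay at chr6:118682904-118683662 and chr6:119085499-119086277. The listed start at which all 8 libraries had a peak is 1 of 3, with 57 CpGs and 81.3% GC, and the other starts, with 3 and 7 CpGs, had no peak in any library. Cacna1d, another L-type gene of neurons, did not differ beyond the spread (-0.23 ± 0.16, adjusted p = 0.31), and it too had 1 segment of each kind, chr14:30056068-30057598 in the CTX libraries and chr14:30232471-30233831 in the MGE libraries. Cacna1f stood at 54.9 to 80.1 in CTX and 52.7 to 111 in MGE, with 8.66% of its called bases in the gene span and the rest in flanks that hold Syp, Ccdc22 and Foxp3.

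Cacna1s stood at 80.4, 83.6, 97.6 and 86.0 in CTX and 152, 101, 161 and 141 in MGE, a difference of 0.60 ± 0.18 (limma adjusted p = 0.021) and a relative difference of 0.49. The cultures did not overlap, but 49.0% of its called bases lay in the gene span and the flanks hold Tmem9, Kif21b, Igfn1 and Ascl5. The call held in 6 of 18 alternatives. With the gene span alone the difference was 0.41 (adjusted p = 0.20), and with 50 kb 0.34 (adjusted p = 0.13). The limma adjusted p was 0.67 unscaled, 0.82 at equal called bp (a difference of 0.08), 0.063 without a filter and 0.051 without a variance trend, and without peaks under a −log10 q of 5 the sign turned, as given above. Without any of CTX KCl 1, CTX KCl 2, CTX unstimulated 2, MGE KCl 1 or MGE unstimulated 1 the limma adjusted p was 0.0643 to 0.127.

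Of the Cav2 subunits of presynaptic calcium entry, Cacna1b (N-type) was higher in MGE. It stood at 46.8, 52.2, 30.3 and 89.5 in CTX and 106, 109, 195 and 127 in MGE, without overlap, a difference of 1.20 ± 0.25 (adjusted p = 0.0028, limma) and a relative difference of 1.08. Its start was called in all 8 libraries. A segment past the 3′ end of the gene, chr2:24587461-24588344, was called over 384 to 884 bp in all MGE and no CTX libraries. The call was lost without a filter, with called bp not scaled and without peaks under a −log10 q of 5. Cacna1a (P/Q-type) stood at 227, 201, 88.6 and 156 in CTX and 389, 266, 225 and 139 in MGE. The cultures overlapped, and the difference of 0.56 ± 0.20 did not pass (limma adjusted p = 0.060). It passed with a pseudocount of 50 (0.021), the gene span alone (0.047), 50 kb (0.025) or equal called bp (0.010), and without CTX unstimulated 2 (0.033), MGE KCl 2 (0.036) or MGE unstimulated 2 (0.025). Its segment chr8:84563574-84564638 was nevertheless called over 484 to 892 bp in all MGE libraries and in no CTX library. Cacna1e (R-type) stood at 255, 336, 391 and 399 in CTX and 250.4, 211, 365 and 369 in MGE, and did not differ beyond the spread (-0.22 ± 0.14, adjusted p = 0.28).

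Of the Cav3 subunits, Cacna1i was higher in MGE and Cacna1g and Cacna1h did not pass. Cacna1i stood at 18.2, 16.9, 38.9 and 68.4 in CTX and 109.8, 99.2, 106 and 109.6 in MGE. The MGE libraries lay close together and above all CTX libraries. The difference was 1.49 ± 0.21 (limma adjusted p = 1.2e-04), a relative difference of 1.38. Only 8.35% of the called bases lay in the gene span, and with the span alone Cacna1i did not pass the filter. Most lay upstream, the longest segment being chr15:80271670-80273504 at -14.7 kb from the start, which 3 CTX libraries called over 272 to 892 bp and the MGE libraries over 966 to 1645 bp. No other protein-coding gene lies in this window. A segment past the 3′ end, chr15:80416953-80417376, was called in all MGE and no CTX libraries, and the start was called in CTX unstimulated library 2 only. The call was lost with called bp not scaled and without peaks under a −log10 q of 5. Cacna1h stood at 93.5, 52.8, 71.7 and 92.4 in CTX and 113, 114, 104 and 37.2 in MGE. Cacna1g stood at 123, 109, 112 and 169 in CTX and 91.2, 124, 112 and 136 in MGE. At both genes the cultures overlapped.

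The alpha2delta genes held both extremes of the list. Cacna2d1, a receptor of gabapentin, was the member furthest below in MGE and Cacna2d2, also a gabapentin receptor, the one furthest above. Cacna2d1 (chr5:15934264-16374511) stood at 389, 411, 423 and 285 in CTX and 43.5, 78.5, 26.0 and 24.7 in MGE. The lowest CTX library was at 285 and the highest MGE library at 78.5. The difference was -2.96 ± 0.19 (limma adjusted p = 3.9e-07), a relative difference of -3.07, and it passed in all 18 alternatives. Of its 39 segments, 38 were called in some CTX library and 6 in some MGE library, and 8 were called in all CTX and no MGE libraries, spread from 68.1 to 410.4 kb downstream of the start. The CpG-rich promoter printed above was called in all 8 libraries, but the segment over it was filled by 2789 to 3198 bp of peak in CTX and by 290, 1484, 357 and 283 bp in MGE. These broad CTX peaks ranked low within their lists by the authors' fold enrichment, at most at the 25.9th percentile, and the short MGE peaks from the 81.3th to the 87.4th. Inside this segment the bins of chr5:15935501-15936500 were filled in the CTX libraries alone, and a peak of MGE KCl 2 touched them.

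Cacna2d2 (chr9:107399733-107529346) stood at 118, 69.1, 71.3 and 88.7 in CTX and 240.5, 217, 372 and 374 in MGE. All MGE libraries lay above all CTX libraries. The difference was 1.67 ± 0.18 (limma adjusted p = 1.2e-05), a relative difference of 1.55, and it passed in 17 of 18 alternatives, the exception leaving out peaks under a −log10 q of 5 (1.08, adjusted p = 0.12). The start was called in 2 CTX and 3 MGE libraries. The segments that set the cultures apart lay inside the gene. That at chr9:107442697-107444628, 43.8 kb downstream of the start, was called over 1492 to 1932 bp in MGE and over 345 bp in CTX unstimulated library 2 alone. That at chr9:107479144-107480849 was called in 3 MGE and no CTX libraries. The flank segments at Tmem115 and at Cyb561d2 and Nprl2 were called in all 8 libraries, and 54.1% of the called bases lay in the gene span.

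Cacna2d4, known from the retina, stood at 161, 141, 231 and 212 in CTX and 54.4, 99.9, 103 and 150.4 in MGE. MGE unstimulated library 2 lay above CTX KCl library 2, and the difference of -0.86 ± 0.19 passed (limma adjusted p = 0.0047), with a relative difference of -0.97. It was lost without a filter, with the gene span alone, without peaks under a −log10 q of 5 and at equal called bp. Cacna2d3, an alpha2delta gene of the brain, had nearly the same mean in both cultures, 345 ± 96.7 bp per Mb in CTX and 345 ± 89.6 in MGE (SD, n = 4), and a difference of 0.01 ± 0.19, which became 0.47 and passed at equal called bp (limma adjusted p = 0.030).

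Among the calcium channel beta subunits, Cacnb1 was higher in MGE, at 142, 117, 112 and 79.0 in CTX and 216, 151, 167 and 205 in MGE, without overlap. The difference was 0.68 ± 0.18 (limma adjusted p = 0.011), a relative difference of 0.57. It was lost in 8 of 18 alternatives: with the gene span alone (0.55, adjusted p = 0.074), without a filter (adjusted p = 0.083), without peaks under a −log10 q of 5 (0.72), unscaled (0.40), and without any of CTX KCl 2, CTX unstimulated 2, MGE KCl 1 or MGE unstimulated 2 (limma adjusted p 0.0553 to 0.0717). Cacnb4, a beta subunit whose loss causes ataxia in mice, missed the threshold with 0.46 ± 0.16 (adjusted p = 0.053). It passed with a replicate block (limma adjusted p = 0.043), a pseudocount of 50 (0.030), the gene span alone (0.014) or equal called bp (0.037), and without CTX unstimulated 1 (0.041) or MGE unstimulated 2 (0.031), and was at -0.0040 unscaled. Cacnb2 and Cacnb3 differed by -0.09 ± 0.14 and 0.01 ± 0.20. Cacnb3 stood at 138, 84.1, 106 and 98.2 in CTX and 116, 92.4, 137 and 83.7 in MGE, and Cacnb2 held 213 to 276 bp per Mb in every library.

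**Figure D3:**
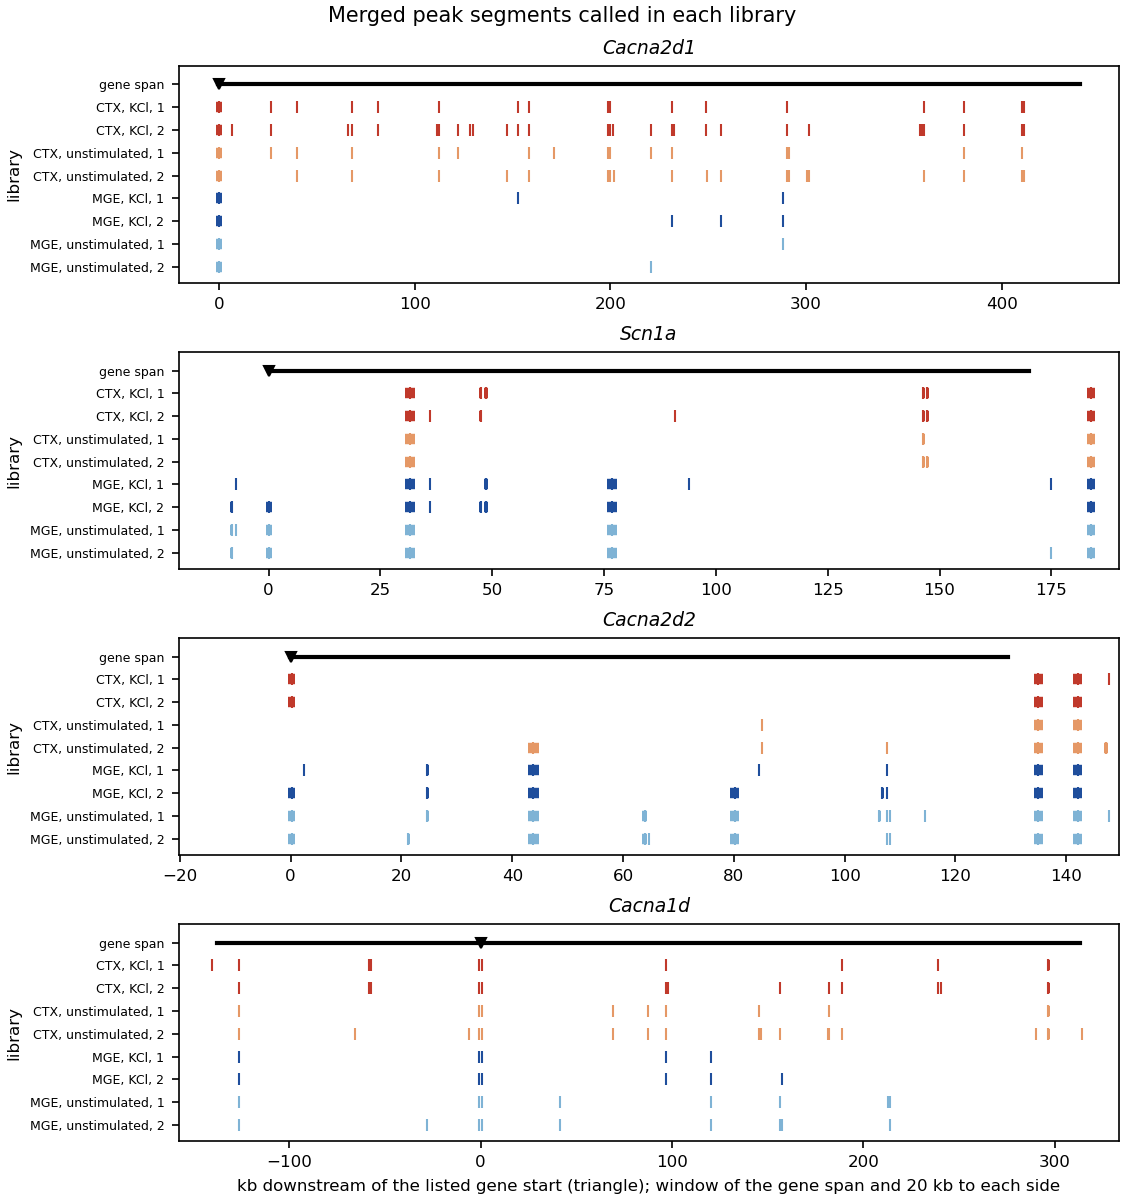
Peak segments, merged over the 8 lists, in the windows of Cacna2d1, Scn1a, Cacna2d2 and Cacna1d, by library, in kb downstream of the listed start (the second listed start for Cacna1d); a mark shows that the library has a peak in the segment, and marks are drawn wider than short segments. At Cacna2d1, 8 segments are marked in all CTX and no MGE libraries, and at Scn1a the segment at 76.8 kb is marked in the MGE libraries alone.

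Merged over the 8 lists, the peaks at the 30 members formed 478 segments, of which 191 were called in 1 library and 151 in at least 4. Of these 151, 44 were called in all 8 libraries, or 29.1%, against 34.2% of all segments in the genome called in at least 4. In all MGE and no CTX libraries 8 were called, or 5.30% against 8.02%. In all CTX and no MGE libraries 22 were called, or 14.6% against 14.5%, and 13 of the 22 lay at Cacna2d1 and Cacna1c. In bins of 500 bp, 1 member had a region of at least 2 adjacent bins called in all MGE and no CTX libraries, Cacna2d2 at chr9:107443001-107444500, against 0.938% of all genes and 2.91% of those with windows of at least 100 kb, and touched by a peak of CTX unstimulated 2. The reverse held for Cacna1c, with 2 regions, and for Cacna2d1, against 1.46% of all genes and 4.28% of those with such windows. The Cacna1c region chr6:118842501-118843500 was touched by a peak of MGE unstimulated 2, and the Cacna2d1 region by a peak of MGE KCl 2. Of the 30 members, 23 have such long windows. Regions in all 8 libraries lay at Cacna1c, Cacna2d2, Cacnb1 and Cacnb4, against 22.2% of all genes. Of the 23 members with long windows 3 had such a region, against 28.5% of all genes with long windows.

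With KCl few genes of any kind were called. In CTX cultures limma called 0 of the 25 members at an adjusted p under 0.05, and 0.238% of all genes (0.135% higher, 0.103% lower), and at an unadjusted p under 0.05 it called 5 members, 2 higher and 3 lower with KCl, and 11.2% of all genes. In MGE cultures it called 1 member, Cacna1d, lower with KCl, and 2.52% of all genes, 0.727% lower and 1.79% higher. At an unadjusted p under 0.05 there were 7 members, 3 higher and 4 lower, and 15.3% of all genes. The median difference of the members was -0.13 in CTX and -0.05 in MGE, against 0.08 and 0.00 for all genes. Both KCl libraries lay above both unstimulated ones at 6 members in CTX and 7 in MGE, against 23.4% and 22.9% of all genes tested, and below them at 7 and 8, against 12.9% and 20.3%. The 2 comparisons use different libraries. With the same called bp in each library the median of all genes became 0.17 in CTX and 0.13 in MGE, and unscaled it became 0.22 in both. The median of the members became 0.05 in CTX and -0.09 in MGE at equal called bp, and 0.02 and 0.18 unscaled. All calls split into 21 higher and 16 lower in CTX and 278 and 113 in MGE as scaled here, and into 214 and 103, and 39 and 36, at equal called bp. Unscaled they numbered 0 in CTX and 2 higher in MGE.

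**Figure D4:**
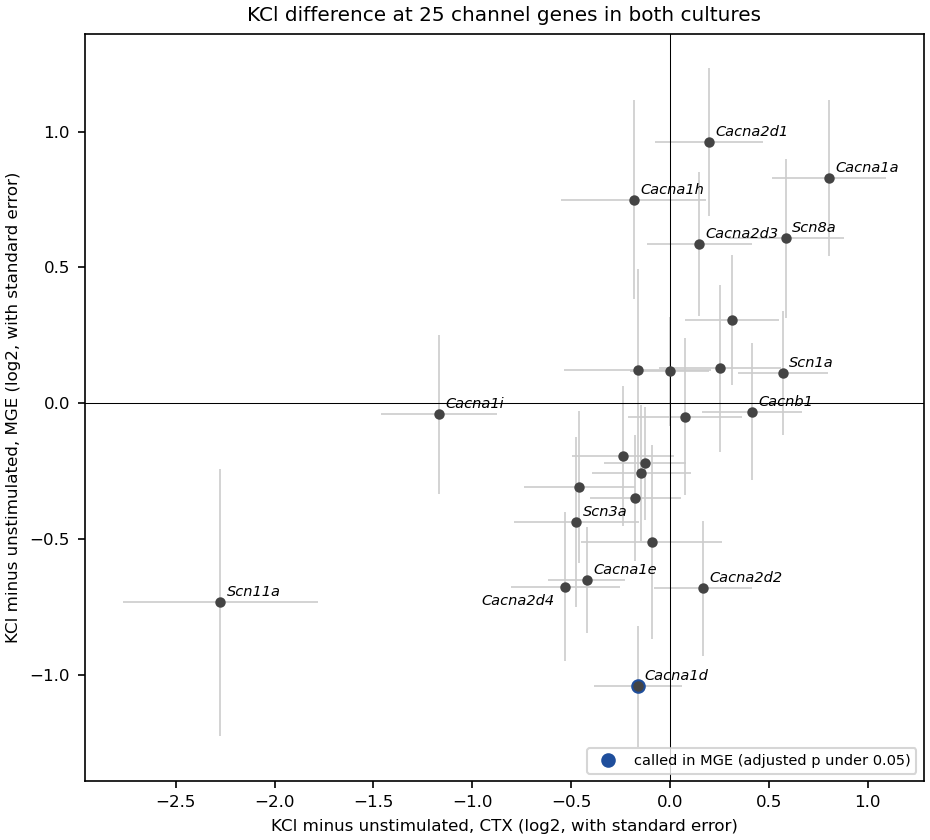
KCl minus unstimulated difference of each tested channel gene in CTX (horizontal) and MGE (vertical), in log2(level + 10) with standard errors from the fit over all genes. Cacna1a and Scn8a lie above 0 in both cultures and Cacna1e below 0 in both. The larger blue point is Cacna1d, the member called in MGE.

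Cacna1d, a channel that couples depolarisation to transcription, fell by 1.04 ± 0.22 in MGE with KCl (log2, SE; limma adjusted p = 0.023), or by 1.05 relative to all genes. It stood at 143 and 96.3 bp per Mb with KCl and 269 and 237 without, and in CTX at 194 and 193 with KCl and 206 and 229 without. A CpG-rich start, with 63 CpGs and 87.3% GC, was called in all 8 libraries, and another, with 4 CpGs, in none. The segment chr14:30196295-30197451 was called over 1146 and 768 bp in the unstimulated MGE libraries and in neither KCl library of that culture, and in CTX over 551 and 303 bp in KCl 2 and unstimulated 2. The call was lost in 10 of 18 alternatives, among them leaving out CTX KCl 1, CTX KCl 2, MGE KCl 2, MGE unstimulated 1 or MGE unstimulated 2 (limma adjusted p 0.0805 to 0.137), and the sign held in all 18. The CTX difference was -0.16 ± 0.22.

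Cacna1a, the P/Q-type channel gene, had a positive KCl difference of similar size in both cultures, 0.80 ± 0.29 in CTX and 0.83 ± 0.29 in MGE, which did not pass (limma adjusted p = 0.26 and 0.15). It was called higher in both at equal called bp (1.63, adjusted p = 0.013, and 1.16, adjusted p = 0.045). Its segment chr8:84493885-84494813, inside the gene, was called over 877 and 870 bp in the CTX KCl and 740 and 773 bp in the MGE KCl libraries, and in no unstimulated library. Segments called in all 4 KCl and no unstimulated libraries numbered 3 at the members, or 1.99% of the 151, against 1.68% of all, and the reverse 0, against 0.351%. The other 2 lay at Cacnb2 (chr2:14936947-14937654) and Cacna2d3 (chr14:29296628-29297509), in both cases inside the gene. Scn8a and Scn2a also had both KCl libraries above both unstimulated ones in each culture, with differences of 0.59 ± 0.29 and 0.61 ± 0.29 at Scn8a and 0.31 ± 0.24 in either culture at Scn2a, none of them past the threshold.

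The lowest differences in CTX were at Scn11a, Cacna1i and Cacna2d4. Scn11a stood at 0 and 11.4 with KCl and 76.1 and 48.3 without, a difference of -2.28 ± 0.49 that did not pass (limma adjusted p = 0.074). It passed without MGE KCl 1 or MGE KCl 2 (limma adjusted p = 0.036 and 0.043), with the gene span alone (adjusted p = 0.045) and with a pseudocount of 50 (adjusted p = 0.0059). In MGE it was -0.73 ± 0.49, and 0.0646 without MGE KCl 1. Cacna1i was at -1.17 ± 0.29 (adjusted p = 0.11) and Cacna2d4 at -0.53 ± 0.28 (adjusted p = 0.52), both with the KCl libraries below the unstimulated ones. Scn1a had the largest CTX difference after Cacna1a and Scn8a, 0.57 ± 0.23 (adjusted p = 0.34). In MGE the highest differences were at Cacna2d1 (0.96 ± 0.27, adjusted p = 0.080), Cacna1a and Cacna1h (0.75 ± 0.37, adjusted p = 0.35), and the lowest after Cacna1d were at Scn11a and Cacna2d2 (-0.68 ± 0.25, adjusted p = 0.18). Cacna1e had both KCl libraries below both unstimulated ones in each culture, with -0.42 ± 0.19 (adjusted p = 0.44) in CTX and -0.65 ± 0.19 (limma adjusted p = 0.094) in MGE. The same order in each culture held at Cacna1d, Cacna2d4 and Scn3b. Cacna2d4 was at -0.68 ± 0.28 in MGE (limma adjusted p = 0.24). Scn3b was at -0.46 ± 0.28 in CTX and -0.31 ± 0.28 in MGE, neither past the threshold.

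In bins of 500 bp, some regions were called in both KCl and neither unstimulated library of a culture. Such regions lay at 4 members in CTX, against 2.06% of all genes. Of the 23 members with windows of at least 100 kb, 3 had one in CTX, against 4.23% of genes with such windows. They lay at 2 members in MGE, both with long windows, against 2.55% of all genes and 5.58% of those with long windows. In CTX they lay at Cacna1a (chr8:84494001-84495500), Cacna1e (chr1:154834001-154835000), Cacna2d3 (chr14:29296501-29297500) and the flank of Cacnb1 (chr11:98035501-98036500). In MGE they lay at Scn8a (chr15:100910001-100911000) and Cacna2d3 (chr14:29651501-29652500). Peaks of further libraries touched some of these regions. MGE unstimulated library 2 touched both MGE regions, at Scn8a and Cacna2d3, without filling the bins. The Scn8a region was also touched by all 4 CTX libraries. Of the CTX regions, that at Cacnb1 was touched by all 4 MGE libraries. That at Cacna1a was touched by both MGE KCl libraries and MGE unstimulated library 1, and that at Cacna2d3 by both MGE KCl libraries. The Cacna1e region was touched by the CTX KCl libraries alone. Regions lost with KCl lay at 0 members in CTX, against 0.809% of all genes and 1.83% of those with long windows, and at 1 in MGE, Cacna1c (chr6:118818001-118819000), against 0.601% and 1.61%. Cacna2d3 stood at 339 and 367 with KCl and 220.3 and 455 without in CTX, and at 381 and 451 with KCl and 300.5 and 248 without in MGE. At Cacna1e a region was gained in CTX while the level over the whole window was lower in both KCl libraries.

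Whether the response to KCl differed between cultures was tested as the difference of the differences. By limma 0 members passed, and 0.0386% of all genes, and at an unadjusted p under 0.05 there were 4 members and 6.6% of all genes. The most positive values, where the KCl difference in MGE lay above that in CTX, were at Scn11a (1.54 ± 0.70, adjusted p = 0.73), Cacna1i (1.13 ± 0.41, adjusted p = 0.57) and Cacna1h (0.93 ± 0.52, adjusted p = 0.87). The most negative were at Cacna1d (-0.88 ± 0.32, adjusted p = 0.55), Cacna2d2 (-0.85 ± 0.35, adjusted p = 0.66) and Scn1a (-0.46 ± 0.32, adjusted p = 0.96). The call of Cacna1d in MGE and its absence in CTX are thus not shown to differ.

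The partners of these channels were counted from a list of 27 genes, of which 26 were tested. In MGE against CTX, 11 were higher and 2 lower, against 10.8% and 12.9% of all genes. These shares, too, are not matched for window length. The partners were counted only as scaled and filtered here, not under the alternatives run for the members. The 11 were Cacng2, Cacng3 and Cacng7, which belong to the gamma subunit family, the presynaptic scaffold genes Rims1, Rims2 and Rimbp2, Fgf11 and Fgf14, which encode intracellular binding partners of sodium channels, Unc79 and Unc80, parts of the sodium leak channel complex, and the adaptor gene Stac2, which lies in the Cacnb1 window. The 2 were Cacng4 and Nalcn, the pore of the sodium leak channel. Cacng3 had the largest difference, 2.50 ± 0.27 (limma adjusted p = 1.4e-05). With KCl, Cacng5 (1.26 ± 0.26, adjusted p = 0.022) and Rims1 (1.01 ± 0.24, adjusted p = 0.039) were higher in MGE, 2 of 26 against 1.79% of all genes called higher. In CTX limma called 0 of 26, against 0.238% of all genes, with 5 at an unadjusted p under 0.05, all higher, and for the difference of the differences 0 of 26, with 3 at an unadjusted p under 0.05.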

How the data were processed

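H3K27ac was measured by ChIP-seq in 8 libraries, 2 in each of 4 groups named in the titles. The submitters' processing notes name the build mm10 and the tools MACS3 3.0.0a7, deepTools 3.4.3, Bowtie2 2.3.3 and cutadapt 1.18, without roles or settings. As to an input control, its use is not given in the sources used. The authors deposited 1 broad-peak list per library, each peak with a fold enrichment, which is a linear ratio, and −log10 p and −log10 q values. The fold was used here to rank peaks within a list, and the −log10 q as a filter. The lowest −log10 q in a list was 1.302 to 1.347. Read counts were not used here, so depth is unknown, and acetylation too weak to be called counts as 0. Peaks outside the assembled autosomes and the X chromosome, 29 in number, were not used, nor were genes there.

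Gene spans and promoters came from RefSeq tables of GRCm38.p6, which give no exons, so positions are given as inside the span or in the flank. The union of a library's peaks in each gene window was divided by the Mb called in it. Genes with a mean of at least 10 bp per Mb were fitted in limma 3.58.1 (R 4.3.3, trended variance) on log2(level + 10), all 8 libraries together, with group means and no replicate block, and Benjamini-Hochberg adjustment over all genes tested in each contrast. Differences of low genes are understated by the pseudocount of 10. Regions and segments were described without a test. For regions gained or lost within a culture, 2 libraries against 2 cannot go below an exact p of 0.33. With 4 libraries against 4 the smallest exact p is 0.029. Alternatives were pseudocounts of 1 and 50, no filter, the span alone or with 50 kb, peaks with a −log10 q of at least 5, unscaled or equal called bp, a replicate block, no variance trend and leaving out each library, and for regions also bins called at any overlap and single bins. Figures and tables used Python 3.11.15. Values in every library are given for members called in a contrast, the 3 with the largest and the 3 with the smallest difference in each contrast, the 3 with the highest percent of window called, and those with a region. Promoters were to be shown for members with a start called in every library of a culture but not in every one of the other, and otherwise for the 2 members with the largest difference of each sign between cultures. Only Cacna1g, Cacna1h and Cacna2d4 had such a site, at an end of the span, and their promoters are not shown, so the second case was used, with Cacna2d4 named only. The members, lists and rules were chosen with earlier results of these data known.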

Additional observations from a re-analysis of the deposited data

How the results depend on the processing

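Between MGE and CTX 11 members were called, against 4 without a filter on low values, 4 with called bp not scaled, 2 at a −log10 q of at least 5, and 8 to 12 when each library was left out in turn. The counts under the other alternatives lay between 8 and 13. With a replicate block 12 were called in place of 11, the added one being Cacnb4, and the block changed no count of members with KCl or for the difference of the differences. Deviations of same-numbered libraries correlated over genes at 0.32, 0.25 and 0.23 among the CTX groups and MGE KCl, and at -0.12, -0.02 and 0.03 between these and MGE unstimulated. The numbers were therefore not taken to pair the samples. Library 2 had more called Mb in CTX KCl (44.7 against 28.45), CTX unstimulated (42.9 against 23.5) and MGE KCl (32.04 against 21.5). In MGE unstimulated it had fewer (21.1 against 23.0). The part of list length in these correlations was not tested. With KCl in CTX, 1 member in place of 0 was called with a pseudocount of 50, with the gene span alone and at equal called bp, and 0 to 1 when each library was left out. With KCl in MGE, 0 in place of 1 were called without a filter, at a −log10 q of at least 5, unscaled and without a variance trend, and 0 to 1 when each library was left out; at equal called bp the 1 member called was Cacna1a, not Cacna1d. Among members called or with the 3 highest or 3 lowest differences of a contrast, signs turned at 4 values. At a −log10 q of at least 5 they were Cacna1s between cultures (-0.14), Cacna2d4 with KCl in CTX (1.62) and Cacna1i in the difference of the differences (-1.90). The last was Scn11a with KCl in MGE without MGE KCl 1 (0.0646, and -1.53 to 0.0646 over the libraries left out). Signs of other members turned too, among them Cacnb4 (-0.0040) and Cacna2d3 (-0.47) between cultures with called bp not scaled. Unscaled, the median of the members also turned, to -0.20 between cultures, 0.02 with KCl in CTX and 0.18 with KCl in MGE. With KCl in CTX it turned as well with 50 kb (0.015), at equal called bp (0.045) and without CTX unstimulated 1 (0.026). With KCl in MGE it turned without MGE KCl 2 (0.016), and between cultures without MGE unstimulated 1 (-0.0022).

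Members with a gained region in CTX numbered 4, and 11 with bins called at any overlap, 14 with single bins and 2 at equal called bp. Lost regions in CTX went from 0 to 7, 6 and 3 in that order. Gained regions in MGE went from 2 to 5 and 18, and lost regions in MGE from 1 to 6 and 11 with any overlap and single bins, and to 2 at a −log10 q of at least 5. MGE-only regions went from 1 to 6 and 7, to 0 at a −log10 q of at least 5 and to 3 at equal called bp. CTX-only regions went from 2 members to 7 and 8, and to 0 under both of the last settings. The cause of these changes was not tested. Read depth and the caller's threshold limit every value, since called length does not measure how strong the acetylation is within a peak.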
